A study of Mus musculus with 15 samples.

Results

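Cytochrome P450 enzymes of families 1 to 3 are heme proteins of the endoplasmic reticulum that oxidise drugs, toxins, steroids and fatty acids. They take their electrons from NADPH through P450 oxidoreductase, and the liver holds most of them. Nuclear receptors such as CAR and PXR, the aryl hydrocarbon receptor and, in the mouse liver, the sex-dependent pattern of growth hormone set the levels of many members.

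The members studied here were the 60 loci named Cyp1, Cyp2 or Cyp3 followed by a letter, except Cyp2b9 and Cyp2b13, among 23589 loci with a gene name. They held 61 gene names, because Cyp2c68 and Cyp2c69 share a locus and Cyp2d34 shares a locus with a Cyp2d13 name, while a further locus is named Cyp2d13 alone. Male C57BL/6 mice gave RNA of liver, the mucosa of the colon, epididymal fat, hippocampus and hypothalamus for RNA-Seq. RNA of 5 mice was pooled into a single library for every tissue and diet, which makes 15 libraries. AL mice were fed ad libitum and were 5 months of age. From 4 months of age DR mice ate 60% of what AL mice ate, for 1 month, and were also 5 months of age. DR-AL mice followed the DR schedule and were then fed AL for 2 months, so they were 7 months of age, and diet and age cannot be told apart in that group. Between 21767088 and 40500130 counts per library fell on named loci.

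Differences between diets have no replicate check, since they rest on 1 library each. A member was called changed when the Z test of the study's methods, which allows for counting error only, gave a Benjamini-Hochberg adjusted p under 0.05 over all genes tested and the fold change was at least 1.25. These calls compare libraries, not diets, so no p-value is printed for them. CPM are counts scaled to the same total on named loci in every library, and log2 fold changes carry exact 95% intervals for counting error. In a pool of tissue, fewer cells of a type and less RNA per cell cannot be told apart.

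The tissue labels were checked with marker lists. Hepatocyte genes summed to between 73009 and 81155 CPM in liver, adipocyte genes to between 16763 and 27083 CPM in fat, and colon epithelium genes to between 38563 and 39354 CPM in colon. Alb, the hepatocyte gene for albumin, was listed at 0 counts in every library, so a 0 in these data can be a failed estimate. The fat library of AL stood apart, with hepatocyte genes at 9645 CPM against 105 and 28.6 CPM in the DR and DR-AL libraries.

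Members differ in how far their reads can be told apart. Of 59 member names with a transcript in GENCODE M21, 17 shared no stretch of 75 bases, the read length in the methods, with another gene, 21 shared at least 10% of such stretches, and 3 shared at least 50%. According to the methods reads came in pairs, whereas these shares take each stretch by itself. Cyp2a4 shared 22.1% of its stretches and Cyp2a5 25.5%, mostly with each other, and their transcripts were 98.3% identical. Promoter sequences of this pair are shown because Cyp2a4 gave the highest fold change in liver and Cyp2a5 is its closest relative. Each is the 250 bases before the start site, 5′ to 3′, from RefSeq on GRCm38.p6, and capitals mark the bases at which the pair differs.
Cyp2a4, chr7:26306942-26307191, + strand: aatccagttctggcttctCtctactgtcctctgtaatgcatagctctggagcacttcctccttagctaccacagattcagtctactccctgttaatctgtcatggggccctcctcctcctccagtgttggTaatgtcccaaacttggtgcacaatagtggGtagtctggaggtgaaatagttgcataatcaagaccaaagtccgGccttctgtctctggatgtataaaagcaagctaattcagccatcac
Cyp2a5, chr7:26835089-26835338, + strand: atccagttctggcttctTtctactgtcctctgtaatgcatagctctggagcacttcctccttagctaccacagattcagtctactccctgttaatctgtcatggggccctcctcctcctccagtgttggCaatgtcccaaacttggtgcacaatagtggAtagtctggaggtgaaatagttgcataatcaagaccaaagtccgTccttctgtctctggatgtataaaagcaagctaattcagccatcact
Over 249 aligned bases, 245 were identical and 4 differed.

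The promoters of Cyp2c70 and Cyp3a11 are shown because they hold the same motif of HNF4, a receptor of hepatocytes, while Cyp2c70 was called against AL in liver and Cyp3a11 was not. Capitals mark the motif CAAAGTCCA, which was chosen after the sequences were read, and, in Cyp3a11, the letters TATAAA, which start far upstream.
Cyp2c70, chr19:40187287-40187536, - strand: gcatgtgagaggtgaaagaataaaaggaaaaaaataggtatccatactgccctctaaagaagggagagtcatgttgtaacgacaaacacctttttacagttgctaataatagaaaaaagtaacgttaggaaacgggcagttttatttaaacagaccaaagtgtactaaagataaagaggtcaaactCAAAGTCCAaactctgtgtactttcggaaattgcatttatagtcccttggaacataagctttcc
Cyp3a11, chr5:145879855-145880104, - strand: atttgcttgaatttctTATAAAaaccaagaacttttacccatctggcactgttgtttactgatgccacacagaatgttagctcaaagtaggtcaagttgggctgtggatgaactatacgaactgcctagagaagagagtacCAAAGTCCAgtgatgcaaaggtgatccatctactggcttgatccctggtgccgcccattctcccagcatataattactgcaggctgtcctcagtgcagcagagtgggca
Of 51 member names with a RefSeq promoter entry, 10 (19.6%) held CAAAGTCCA on either strand, against 122 of 27025 genes (0.451%). They were Cyp2c40, Cyp2c65, Cyp2c67, Cyp2c68, Cyp2c69, Cyp2c70, Cyp3a11, Cyp3a16, Cyp3a41a and Cyp3a41b. TATAAA on the forward strand was in 37.3% of member promoters and 8.94% of all, and GCGTG, the core that the aryl hydrocarbon receptor binds, was on either strand in 17.6% and 30.9%. Members are paralogs and not independent, and a match is a description of letters only.

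In liver, members took 3.79%, 3.65% and 2.62% of all counts in AL, DR and DR-AL. Cyp2e1, which oxidises ethanol and acetaminophen, made up 41.5%, 33.4% and 34.2% of the member counts. By FPKM, which allows for transcript length, the highest member in liver was Cyp2e1 (mean 13391), followed by Cyp3a11 (8124), Cyp2d9 (2197), Cyp2a5 (1973) and Cyp2d26 (1336). Of the 60 members, 8 had no count in any liver library, 52 were tested, and 37 had a mean of at least 100 counts.

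**Figure D1:**
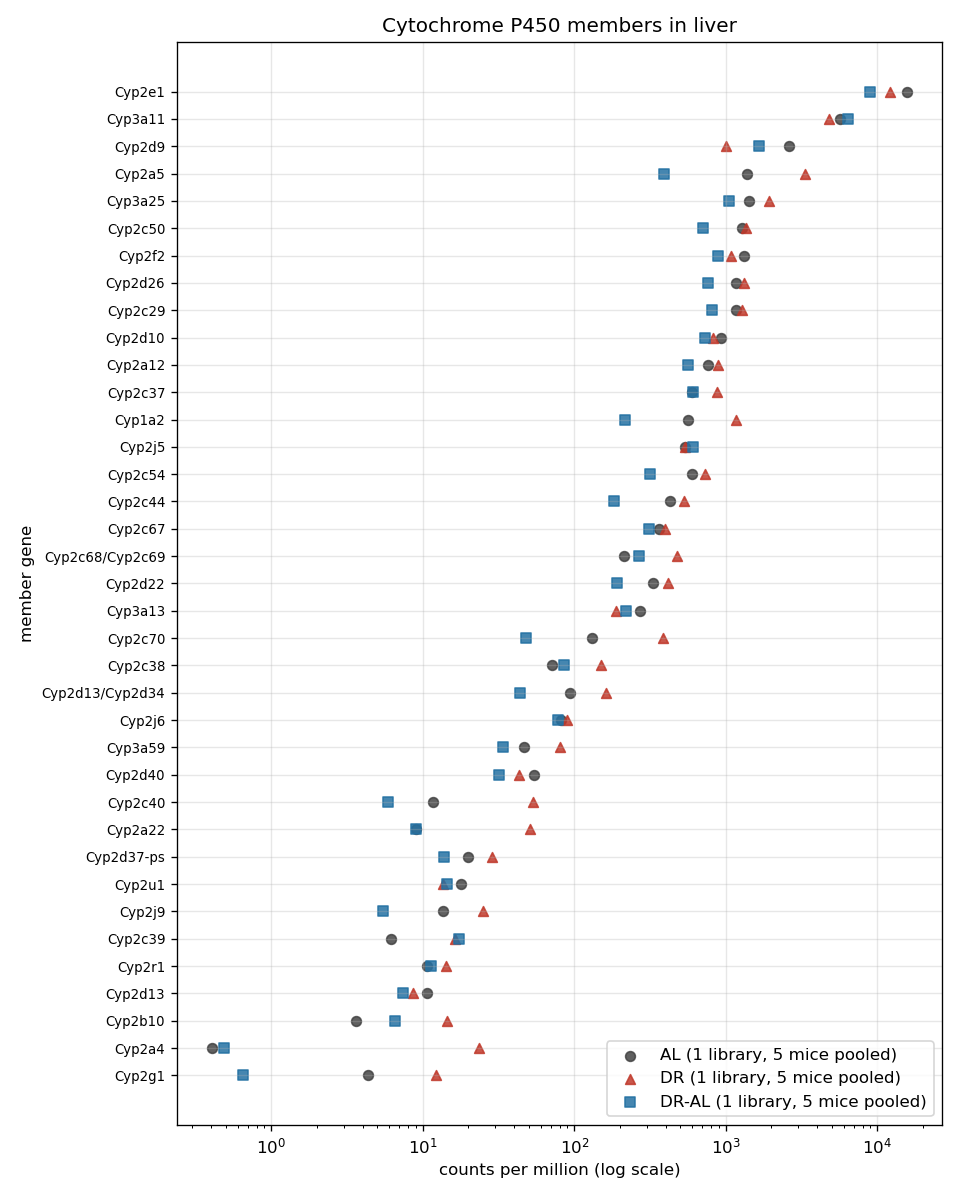
Level of each of the 37 members with a mean of at least 100 counts in liver, in CPM on a log axis, with 1 point for the library of each diet. Cyp2e1 and Cyp3a11 lie at the top in all 3 libraries, and Cyp2a4 runs from 0.404 CPM in AL to 23.5 CPM in DR.

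After DR, more members were higher than lower in liver. Of the 52 tested, 21 were higher and 5 lower in DR than in AL, where 28.0% of 17408 genes were called, 18.0% higher and 9.92% lower. The median log2 fold change of tested members was 0.33, against 0.10 for all genes tested. A fold of at least 2 was reached by 13 higher members and 1 lower member, where 5.62% and 2.69% of genes did so. In DR-AL the pattern was the other way round, with 4 members higher and 24 lower than in AL, where 30.9% of genes were called, 15% higher and 15.8% lower. The median was −0.40 against 0.00 for all genes. A fold of 2 or more was reached by 2 higher and 8 lower members (4.65% and 3.69% of genes). Both comparisons share the AL library. DR-AL and DR compared with each other gave 4 members higher and 29 lower, where 40.8% of genes were called, 16.9% higher and 24.0% lower, and at a fold of 2 or more 1 higher and 17 lower (5.39% and 9.44% of genes). Of the 37 members with a mean of at least 100 counts, 26 were highest in DR, 8 in AL and 3 in DR-AL. The lowest library was DR-AL for 24, AL for 9 and DR for 4. This order was not counted over all genes, of which more were also higher than lower in DR.

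These counts rest on the error allowed between libraries. In edgeR's exact test with the coefficient of variation of 0.312 estimated over the 3 liver libraries without regard to diet, 1 member (Cyp2a4) was called in DR against AL, where 0.425% of genes were called, and 9 had an unadjusted p under 0.05. With the same error 0 were called in DR-AL against AL, where 0.402% of genes were called and 6 members had an unadjusted p under 0.05. The share of all genes under that unadjusted p was not computed, so the 9 and the 6 have no background. In DR-AL against DR, where 0.850% of genes were called, 7 members were called, which were Cyp1a2, Cyp2a4, Cyp2a5, Cyp2a22, Cyp2c40, Cyp2c70 and Cyp2g1, all lower in DR-AL.

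**Figure D2:**
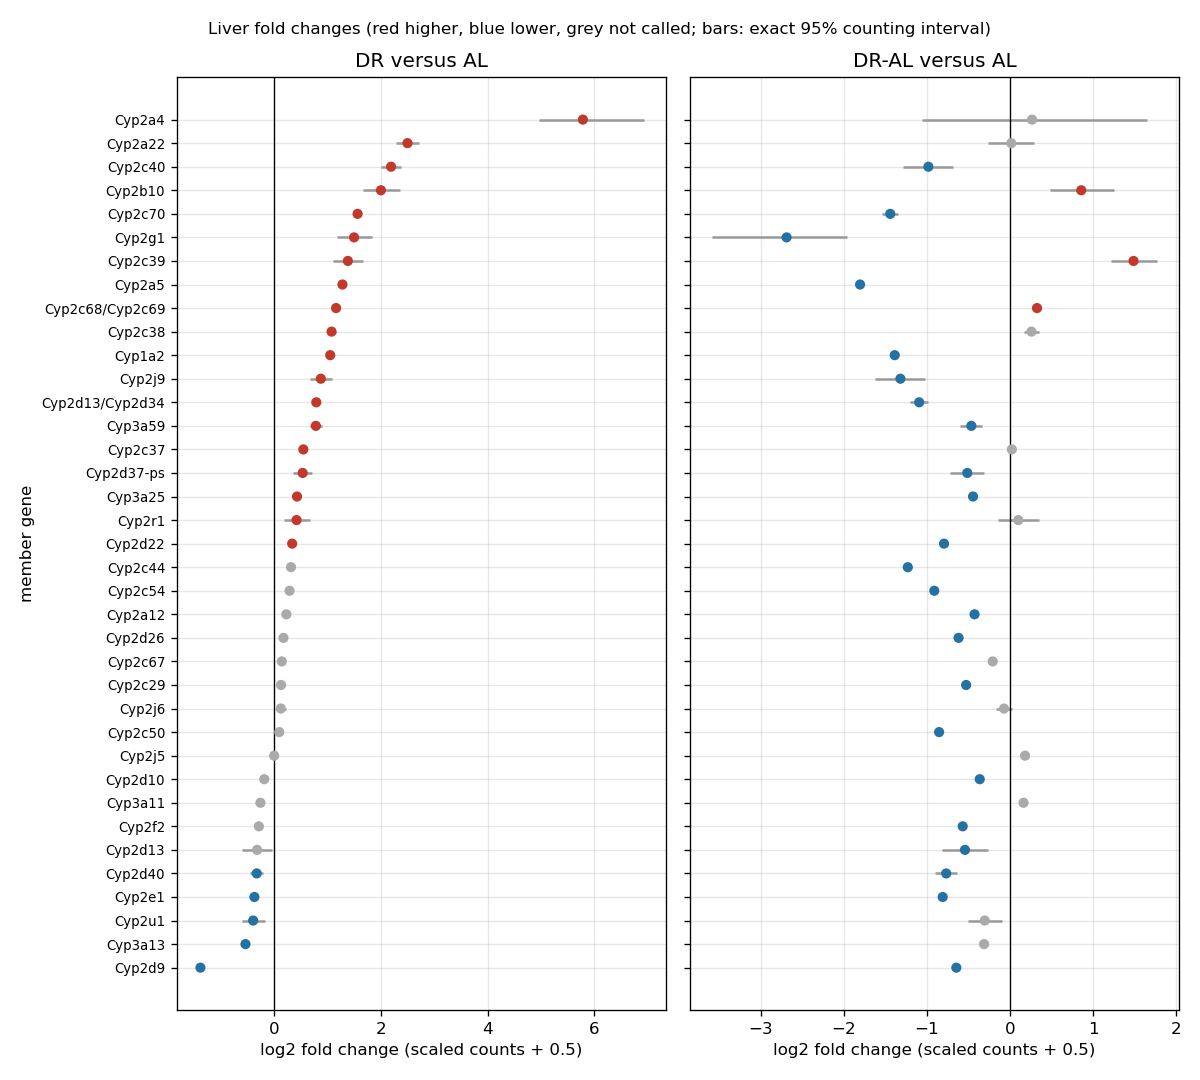
Log2 fold change of the same 37 liver members in DR against AL (left) and DR-AL against AL (right), ordered by the first, with exact 95% intervals that cover counting error only. On the left 19 members are red (higher) and 5 blue (lower), and on the right 3 are red and 23 blue.

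Counts by subfamily are small and are read beside the shares of all genes called, which were 18.0% higher and 9.92% lower in DR and 15% and 15.8% in DR-AL. Family 1 enzymes are the classical targets of the aryl hydrocarbon receptor. Cyp1a2, which demethylates caffeine, was at 562, 1165 and 215 CPM in AL, DR and DR-AL. It rose by 1.05 on the log2 scale in DR (1.02 to 1.08) and fell by 1.39 in DR-AL (−1.43 to −1.34). Cyp1a1 was low in liver, at 27, 50 and 34 counts, and rose in DR (log2 1.06, 0.37 to 1.81). Cyp1b1, an enzyme of tissues other than liver, had 19, 10 and 35 counts and was not called against AL.

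In the Cyp2a subfamily, 3 of 4 members rose in DR and 2 fell in DR-AL. Cyp2a4, a steroid 15-alpha-hydroxylase that is more abundant in female than in male mouse liver, had 10, 511 and 12 counts in AL, DR and DR-AL. The DR library stood far above both others, 58.1-fold above AL (31.3 to 122), while the AL and DR-AL values overlapped within counting error (ratio 1.21, 0.480 to 3.13). Its paralog Cyp2a5, which hydroxylates coumarin and nicotine, was at 1372, 3335 and 393 CPM, a rise of 1.28 on the log2 scale in DR and a fall of 1.81 in DR-AL. Cyp2a4 made up 0.0295% of the reads of the pair in AL (exact binomial 95% interval 0.0141 to 0.0542), 0.699% in DR (0.640 to 0.762) and 0.125% in DR-AL (0.0644 to 0.218). The share of the pair was thus not the same in the 3 libraries, and how reads of the shared stretches were divided between the pair was not tested. Cyp2a22 had 222, 1107 and 222 counts, with a log2 fold change of 2.5 in DR (2.29 to 2.72) and 0.01 in DR-AL (−0.26 to 0.29). Cyp2a12, which is 96.8% identical to Cyp2a22 in transcript sequence, was at 761, 892 and 565 CPM and was called only in DR-AL (log2 −0.43).

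Cyp2b10, the standard target of CAR, had 89, 315 and 160 counts. It rose in both comparisons, by 2.0 in DR (1.66 to 2.36) and by 0.86 in DR-AL (0.48 to 1.25) on the log2 scale.

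The Cyp2c subfamily holds epoxygenases of arachidonic acid and enzymes of steroids and bile acids. Of its 15 loci 13 were tested, and 7 rose and 0 fell in DR, while 2 rose and 6 fell in DR-AL. Cyp2c70, which forms the muricholic acids that mark mouse bile, was at 130, 385 and 47.9 CPM in AL, DR and DR-AL (log2 1.57 and −1.44). Cyp2c40 had 288, 1160 and 144 counts (log2 2.19 and −0.98), but 57.1% of its stretches of 75 bases occur in other genes. Both genes were thus highest in DR and lowest in DR-AL. Cyp2c39 was higher in both libraries that had been restricted, with 153, 352 and 425 counts in AL, DR and DR-AL. Its log2 values were 1.38 in DR (1.11 to 1.67) and 1.49 in DR-AL (1.22 to 1.76). The locus of Cyp2c68 and Cyp2c69 was at 212, 474 and 265 CPM (log2 1.16 and 0.32), and Cyp2c38 at 71.3, 150 and 85.2 CPM (log2 1.08 and 0.26, the second not called).

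Cyp2c29, an epoxygenase, was at 1164, 1273 and 807 CPM and Cyp2c50 at 1270, 1358 and 703 CPM, both called only as lower in DR-AL (log2 −0.53 and −0.85). Cyp2c54 and Cyp2c44 also fell in DR-AL alone (log2 −0.91 and −1.23). Cyp2c37 was at 598, 875 and 607 CPM and rose in DR (log2 0.55). Cyp2c55, which is mainly a colon gene, had 53, 147 and 46 counts in liver and rose in DR (log2 1.65, 1.19 to 2.14). Beside it, 6 of 10 colon epithelium markers rose in that library and 0 fell, where 18.0% of all genes rose and 9.92% fell. Among the 6 were Lypd8 with 3, 41 and 34 counts and Slc26a3 with 1, 10 and 9. The summed level of the 10 markers was 31.3, 46.4 and 23.4 CPM, with none at 0. This sum was lowest in DR-AL, unlike the counts of Lypd8 and Slc26a3. The part of the markers in the value of Cyp2c55 was not tested.

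In the Cyp2d subfamily, 3 of 10 members (30%) rose and 2 (20%) fell in DR, and 8 (80%) fell in DR-AL. Both DR shares lie above those of all genes (18.0% and 9.92%), but they rest on 3 and 2 members. Cyp2d9, a testosterone 16-alpha-hydroxylase of male mouse liver, was at 2605, 1001 and 1664 CPM in AL, DR and DR-AL. It gave the lowest log2 value of any of the 37 members in DR, −1.38 (−1.40 to −1.36), and −0.65 (−0.67 to −0.63) in DR-AL, so the DR-AL library lay between the other two. Cyp2d40 was at 53.9, 43.1 and 31.6 CPM (log2 −0.33 and −0.77), lower in both. The locus named Cyp2d13 alone had 265, 187 and 180 counts (log2 −0.32, not called, and −0.54). Cyp2d26 and Cyp2d10 were called only in DR-AL (log2 −0.62 and −0.37). Cyp2d22, at 330, 417 and 190 CPM, rose in DR and fell in DR-AL (log2 0.34 and −0.80).

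Cyp2e1 fell in both comparisons, at 15737, 12189 and 8967 CPM for AL, DR and DR-AL, with log2 values of −0.37 (−0.38 to −0.36) and −0.81 (−0.82 to −0.80). Cyp2f2, which oxidises naphthalene, was at 1313, 1078 and 885 CPM and was called only in DR-AL (log2 −0.57). Cyp2g1, best known from the olfactory mucosa, had 107, 267 and 16 counts. It rose by 1.5 in DR (1.18 to 1.84) and fell by 2.69 in DR-AL (−3.59 to −1.96), the lowest log2 value among the 37 members in that comparison.

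Among Cyp2j epoxygenases, Cyp2j5 stayed near 1 level, at 537, 538 and 609 CPM, with log2 values of 0.00 (−0.03 to 0.04) and 0.18 (0.15 to 0.21). Cyp2j9 had 336, 543 and 133 counts (log2 0.88 and −1.32). Cyp2r1, a 25-hydroxylase of vitamin D, had 263, 310 and 279 counts and rose in DR (log2 0.42). Cyp2u1, a fatty acid hydroxylase, had 443, 297 and 355 counts and fell in DR (log2 −0.39). Cyp2s1 had 6, 15 and 34 counts and rose in DR-AL (log2 2.42, 1.25 to 4.06), and Cyp2w1 had 1 count in 1 library.

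Family 3A holds the main drug-oxidising enzymes of the liver. Cyp3a11, a standard target of PXR, was at 5704, 4776 and 6383 CPM in AL, DR and DR-AL and was not called against AL in either comparison (log2 −0.26 and 0.16), and with FPKM the first value was 0.135. Cyp3a25 was at 1431, 1928 and 1051 CPM (log2 0.43 and −0.45). Cyp3a13 fell in DR (272, 188 and 219 CPM, log2 −0.54). Cyp3a44 and Cyp3a16 belong with Cyp2a4, Cyp3a41a and Cyp3a41b to a list of 5 members more abundant in female liver, which does not hold every such member. Cyp3a44 had 10, 12 and 4 counts and Cyp3a16 3, 5 and 7 counts, and neither was called against AL. Cyp3a41a and Cyp3a41b were listed at 0 in all 15 libraries, and 91.1% and 90.9% of their 75-base stretches occur in the other.

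Genes that P450 enzymes depend on were counted as lists, to be read beside the same shares of all genes (18.0% higher and 9.92% lower in DR, 15% and 15.8% in DR-AL). Por, the oxidoreductase that feeds electrons to all of them, had 22835, 16850 and 14650 counts in AL, DR and DR-AL, with log2 values of −0.25 (not called) and −0.63. Of 5 redox partners in the table, 2 rose in DR and 3 fell in DR-AL, with medians of 0.24 and −0.63. Among 8 enzymes of heme synthesis, 2 rose and 1 fell in DR, and 1 rose and 4 fell in DR-AL. Alas1, which starts heme synthesis, had 19009, 18275 and 8627 counts (log2 0.13, not called, and −1.13).

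Transcription factors that act on P450 genes gave 5 higher and 2 lower of 20 in DR, and 1 higher and 8 lower in DR-AL, with medians of −0.05 and −0.27. The shares in DR, 25% and 10%, lie near those of all genes, and 40% were lower in DR-AL. Cux2, a repressor more abundant in female liver, had 61, 451 and 32 counts (log2 3.06 and −0.91). Bcl6, a repressor more abundant in male liver, had 411, 1481 and 595 counts (log2 2.03 and 0.55). Cux2 was thus high in DR alone, whereas Bcl6 was above AL in both. Nr1i3, which encodes CAR, had 3894, 3071 and 1295 counts and fell in DR-AL (log2 −1.57). Nr1i2, which encodes PXR, had 2322, 2670 and 1818 counts (log2 0.39 and −0.34). Ahr was not called, at 1221, 1299 and 1139 counts.

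Of 18 loci on the list of CAR and PXR targets, which holds 5 members, 8 rose and 1 fell in DR, and 2 rose and 12 fell in DR-AL, with medians of 0.16 and −0.58. Of 7 targets of the aryl hydrocarbon receptor, which include the 3 members of family 1, 3 rose in DR, and 1 rose and 1 fell in DR-AL. Glutathione transferases, which conjugate P450 products, gave 14 higher (70%) and 2 lower (10%) of 20 in DR (median 0.96) and 5 higher and 8 lower in DR-AL (median −0.24). Gstm3 was the furthest of them, with 258, 5877 and 206 counts (log2 4.69 and −0.31, the second not called). Glucuronosyl and sulfotransferases gave 5 higher and 7 lower of 18 loci in DR, and 2 higher and 5 lower in DR-AL, with the Ugt1a genes counted as the 1 locus they share in the table. Sult3a1 had 1, 256 and 6 counts.

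Cell type lists did not all stay level in liver. Hepatocyte genes gave 4 higher and 3 lower of 15 in DR, and 1 higher and 3 lower in DR-AL. The 10 pericentral genes, a zone in which many P450 enzymes are made, include the members Cyp2e1, Cyp1a2 and Cyp2c37. They summed to 20144, 16875 and 12225 CPM, with 2 higher and 4 lower in DR and 0 higher and 5 lower in DR-AL. Most of this sum is Cyp2e1, so it is not a measure apart from the members. The 9 periportal genes, which include the member Cyp2f2, summed to 13384, 13270 and 11710 CPM. Of these genes 2 were higher and 2 lower in DR, and 0 higher and 2 lower in DR-AL. Stellate cell genes summed to 265, 274 and 420 CPM, and genes of Kupffer cells and macrophages to 153, 128 and 117 CPM. Of 6 genes of liver endothelium, 4 rose and 0 fell in DR, and of 5 cholangiocyte genes 0 were called in DR and 1 in DR-AL. Their part in the member values was not tested.

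Across tissues, liver was the tissue with the highest mean CPM for 37 of the 58 members with any count, followed by colon for 10, fat for 7, hypothalamus for 3 and hippocampus for 1. Tissues were compared with edgeR's quasi-likelihood test, in which the libraries of the 3 diets stand for replicates and tissues of a diet share mice. The test scales libraries by its own factors (TMM) and CPM by totals. Its log2 values between tissues can therefore differ from the ratios of the CPM printed beside them. Liver against colon gave 37 members higher and 10 lower of 48 tested, where 69.9% of 16990 genes were called, 32.9% higher and 37.1% lower. Against the 2 brain regions, 41 were higher and 3 lower, where 83.9% were called, 37.4% higher and 46.5% lower. Cyp2e1 was 11.5 (SE 0.44) above colon and 14.30 (SE 0.35) above brain on the log2 scale, with Benjamini-Hochberg adjusted p of 1.1e-09 and 1.83e-11 in the edgeR test.

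**Figure D3:**
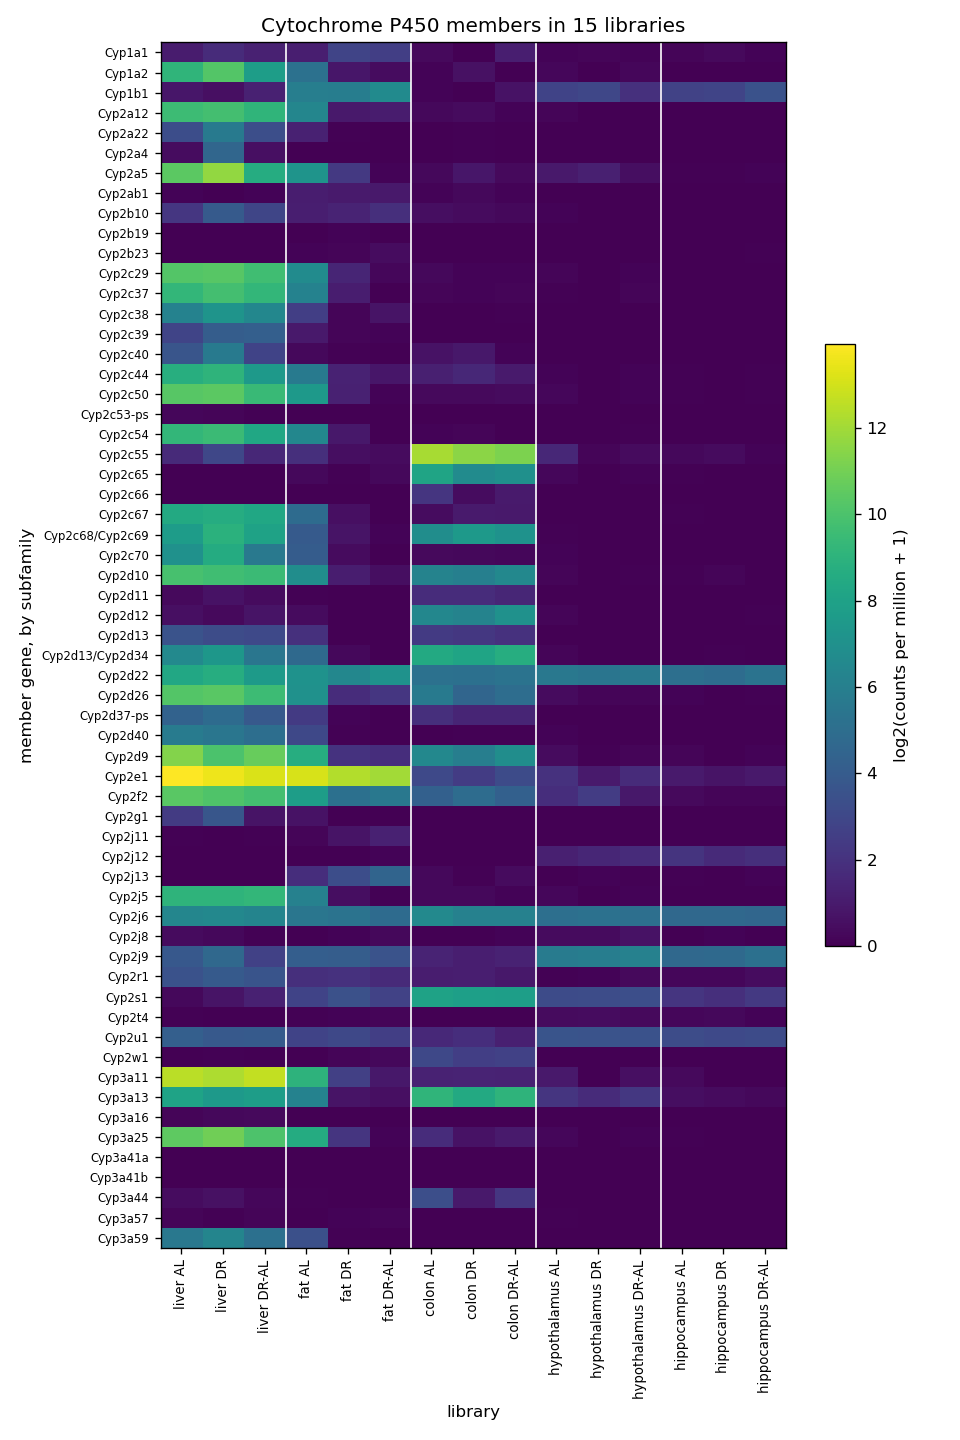
Log2(CPM + 1) of the 60 members in the 15 libraries, with members ordered by subfamily and white lines between tissues. The liver columns are bright over most rows, the colon columns over Cyp2c55, Cyp3a13 and Cyp2s1, and the AL column of fat stands apart from the DR and DR-AL columns of fat.

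In colon, the leading member by FPKM was Cyp2c55 (mean 1674), an enzyme that hydroxylates arachidonic acid, ahead of the locus of Cyp2d13 and Cyp2d34 (251), Cyp3a13 (219), Cyp2c65 (97.7) and Cyp2s1 (92.3). Cyp2c55 was at 4385, 2888 and 2297 CPM in AL, DR and DR-AL, against 1.88 to 6.75 CPM in liver (log2 −9.21, SE 0.69, edgeR adjusted p 2.98e-07). Cyp2c65 and Cyp2c66 were listed at 0 in the liver libraries, with 3229 to 7430 and 12 to 93 counts in colon. Cyp2s1, a P450 of epithelia, was at 260, 231 and 220 CPM (log2 of liver against colon −7.65, SE 0.33). Cyp3a13 was lower in liver than in colon (log2 −0.45, SE 0.14, edgeR adjusted p 0.0148), a difference that missed the threshold without the AL libraries (log2 −0.50), without the DR libraries (−0.46), with all 15 libraries (−0.37) and with no diet term (−0.45).

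Between diets in colon, 5 members were higher and 13 lower of 52 tested in DR, where 19.7% of 18242 genes were called, 9.04% higher and 10.6% lower. In DR-AL 4 were higher and 9 lower, where 14.3% were called, 5.83% higher and 8.50% lower. Median log2 values of the tested members were −0.22 in DR and −0.39 in DR-AL, against 0.00 and −0.01 for all genes. At a fold of 2 or more 3 members were higher and 6 lower in DR (1.94% and 3.79% of genes), and 3 higher and 5 lower in DR-AL (1.43% and 2.58%). Cyp2c65 was at 280, 106 and 129 CPM in AL, DR and DR-AL (log2 −1.40 and −1.12). Its neighbour in sequence Cyp2c66 had 93, 12 and 26 counts (log2 −3.22, −4.29 to −2.41, and −1.74, −2.44 to −1.11). Cyp3a44, more abundant in female liver, had 240, 32 and 89 counts (log2 −3.22 and −1.34). In these 3 genes the AL library was the highest and the DR library the lowest. Cyp2c55 fell in both comparisons as well (log2 −0.60 and −0.93), and Cyp2d26 was at 51.8, 22.7 and 31.1 CPM (log2 −1.19 and −0.74).

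Fewer members were higher in DR in colon. Cyp2f2 had 485, 997 and 456 counts (log2 0.71 and −0.004, the second not called), and the locus of Cyp2c68 and Cyp2c69 was at 115, 181 and 135 CPM (log2 0.66 and 0.24, the second not called). Cyp1a1 had 8, 1 and 31 counts (log2 −2.75, −8.80 to −0.43, and 1.98, 0.89 to 3.37). Cyp1b1 had 3, 1 and 15 counts and rose in DR-AL (log2 2.24, 0.59 to 4.84). Colon epithelium genes summed to nearly the same level in the 3 libraries (38563 to 39354 CPM), while pancreas genes summed to 219, 254 and 241 CPM. With the coefficient of variation of 0.164 estimated over the colon libraries, edgeR's exact test called 5 members in DR (Cyp2c65, Cyp2c66, Cyp2d26, Cyp3a25 and Cyp3a44, all lower), where 1.30% of genes were called, and 1 in DR-AL (Cyp2c66, lower), where 0.329% were called.

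**Figure D4:**
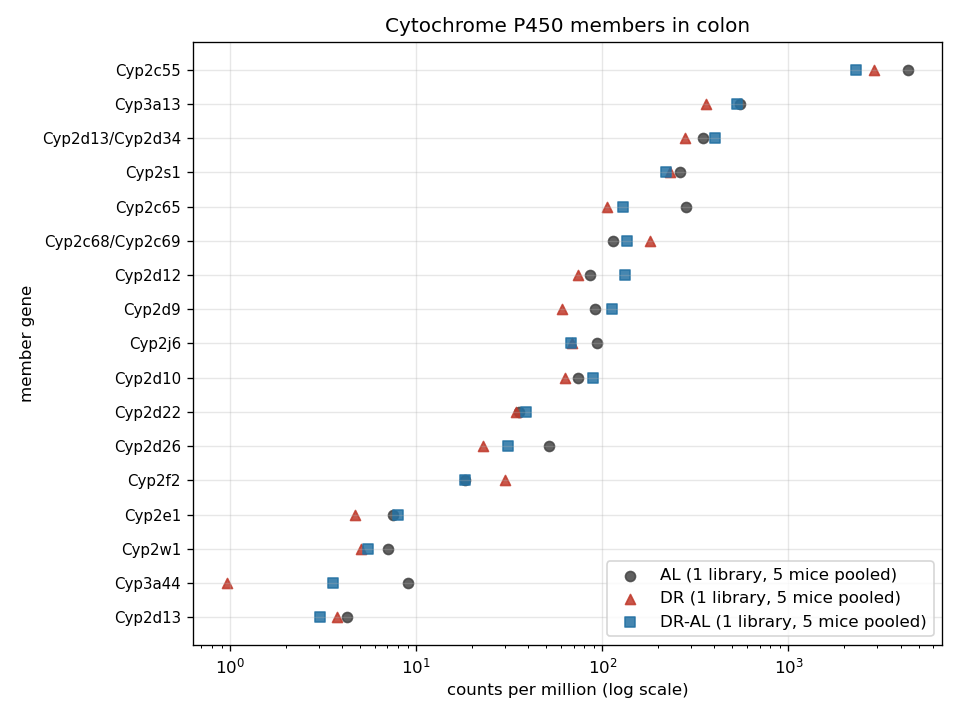
Level of the 17 members with a mean of at least 100 counts in colon, in CPM on a log axis, with 1 point for the library of each diet. Cyp2c55 is the highest in each library, and Cyp3a44 shows the widest spread between AL and DR.

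In epididymal fat, members and hepatocyte genes were both far higher in the AL library than in the others. The 37 members with a mean of at least 100 liver counts stood at medians of 14.1%, 0.135% and 0.108% of their liver level in AL, DR and DR-AL. For 15 hepatocyte genes the medians were 14.0%, 0.126% and 0.0183%. Between diets in fat, 4 members were higher and 32 lower of 57 in DR, where 45.6% of 20382 genes were called, 35.2% higher and 10.4% lower. In DR-AL 7 were higher and 34 lower, where 57.9% were called, 46.0% higher and 11.9% lower. For 2 of the 7 higher members the exact interval includes no change. The part of hepatocyte genes in these counts was not tested. Other tissue also differed among the fat libraries, since epididymis genes summed to 1036, 3687 and 6166 CPM and testis germ cell genes to 5.87, 467 and 2228 CPM.

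**Figure D5:**
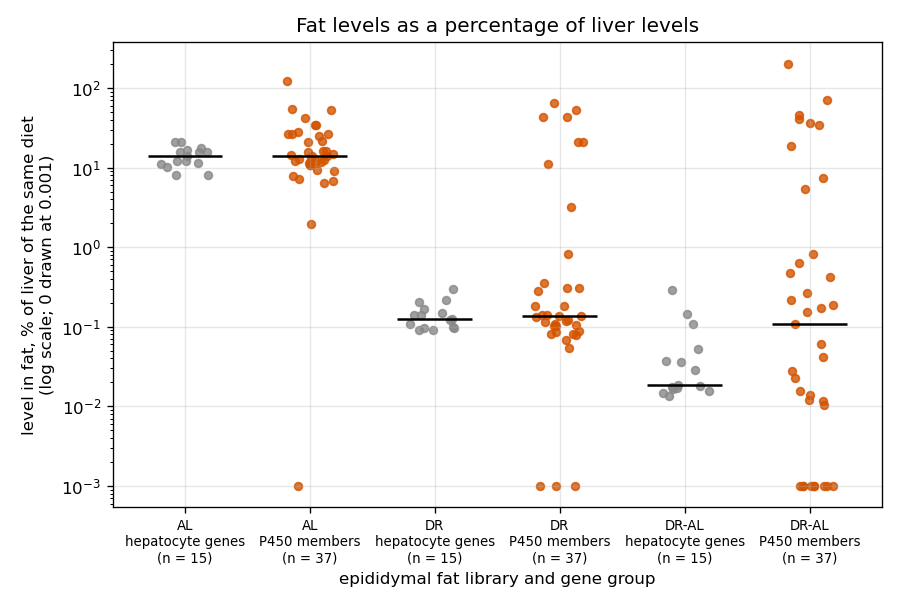
Level of each gene in a fat library as a percentage of its level in the liver library of the same diet, on a log axis, for 15 hepatocyte genes (grey) and 37 members (orange), with black lines at the medians. The medians of both groups lie near 14% in AL and near 0.13% in DR.

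Several members kept a fat level in all 3 libraries. Cyp2e1 was at 8686, 5240 and 4103 CPM in AL, DR and DR-AL, still 2.22 below liver on the log2 scale (SE 0.36, edgeR adjusted p 0.000245). Cyp1b1, an enzyme of stromal cells, was at 61.4, 60.01 and 103 CPM, with a log2 value of liver against fat of −5.24 (SE 0.59, edgeR adjusted p 2.04e-05). Cyp2d22 was at 137, 87.0 and 135 CPM, and Cyp2s1 at 5.91, 10.1 and 5.67 CPM (log2 of liver against fat −2.07, SE 0.43, edgeR adjusted p 0.00132). Cyp1a1 had 32, 144 and 135 counts, a log2 change of 2.35 against AL in DR and 2.0 in DR-AL. Liver against fat gave 41 members higher and 5 lower of 49, where 70.2% of 17476 genes were called, 28.6% higher and 41.6% lower. Without the AL library of fat 41 were higher and 6 lower, and the share of all genes is not given for that fit.

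In the brain, members took between 0.0102% and 0.0184% of counts. Cyp2j9, Cyp2d22, Cyp2j6 and Cyp2u1 led by FPKM in both regions, with means of 16.9, 9.07, 5.62 and 1.38 in hypothalamus and 11.7, 10.3, 5.5 and 1.63 in hippocampus. Cyp2j9 was at 60.5 ± 7.32 CPM (SD, n = 3 diets) in hypothalamus and 28.8 ± 5.21 in hippocampus, against 5.43 to 24.95 CPM in liver. Under the TMM scaling of the edgeR test, the difference between liver and brain missed the threshold (log2 −0.49, SE 0.33, edgeR adjusted p 0.186). That log2 value is a smaller gap than the CPM give. Cyp2d22 was at 45.6 ± 2.77 and 33.9 ± 4.28 CPM, and Cyp2j6 at 34.1 ± 1.52 and 24.4 ± 0.681 CPM (SD, n = 3 diets). Cyp1b1 and Cyp2s1 were lower in liver than in brain (log2 −1.77, SE 0.52, and −1.71, SE 0.32, edgeR adjusted p 0.00831 and 0.00035). The call of Cyp1b1 was lost without the AL libraries (log2 −1.75).

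Hypothalamus against hippocampus gave 4 members higher and 0 lower of 48, where 44.6% of genes were called, 23.1% higher and 21.5% lower. These were Cyp3a13, with log2 2.93 (SE 0.23), Cyp2f2, with 3.45 (SE 0.53), Cyp2a5, with 3.35 (SE 0.64), and Cyp2s1, with 1.11 (SE 0.26). Their adjusted p in edgeR's quasi-likelihood test were 3.59e-06, 0.000392, 0.00153 and 0.00486. Cyp3a13 was at 2.26 to 3.78 CPM in hypothalamus and 0.239 to 0.444 in hippocampus, so the regions did not overlap. Its call was lost in a fit of all 15 libraries (log2 3.18), as was that of Cyp2a5. DESeq2 called 6 members, and in edgeR's test 9 had an unadjusted p under 0.05. The share of all genes was computed for neither count.

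In hypothalamus 1 member was higher and 12 (26.7%) lower of 45 in DR, where 7.05% of 19320 genes were called, 4.33% higher and 2.72% lower. In DR-AL 2 were higher and 8 lower, where 15.1% were called, 6.06% higher and 9.02% lower. Of the 12 lower calls in DR, 8 rest on 4 to 6 counts in AL and 0 in DR, and for 4 of these the exact interval includes no change. In DR-AL 4 of the 8 lower calls rest on 3 or 4 counts against 0, with intervals that include no change. The lower members in DR with more counts were Cyp3a13 (log2 −0.59, −1.04 to −0.14), Cyp2e1 with 89, 33 and 71 counts, Cyp2c55 with 59, 5 and 11 counts and Cyp3a11 with 27, 0 and 15. In the same libraries colon epithelium genes summed to 32.7, 9.89 and 8.30 CPM with none at 0 and hepatocyte genes to 20.8, 7.91 and 14.5 CPM, and their part was not tested. Cyp1b1 had 178, 225 and 89 counts in hypothalamus and 232, 192 and 262 in hippocampus. In hippocampus 0 members were higher and 3 lower of 34 in DR, where 4.03% of 18804 genes were called, 1.36% higher and 2.67% lower. Of these 3, Cyp2d26 had 4 counts in AL and 0 in DR, with an interval that includes no change, and Cyp3a11 had 11 and 0. In DR-AL 2 were higher and 1 lower, where 6.15% were called, 3.99% higher and 2.16% lower.

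To ask whether any member moved with diet over tissues, the 12 libraries without fat were fitted together with tissue as a term. Fat was left out of the fits on 12 libraries because its AL library was high in hepatocyte genes. That choice was made with earlier results of these data known. In DR against AL, 1 of 48 members was called, Cyp2a4 (log2 5.58, SE 0.50, edgeR adjusted p 0.0255), where 0.0765% of 16990 genes were called, 0.0118% higher and 0.0647% lower, and 15 members had an unadjusted p under 0.05. Nearly all counts of Cyp2a4 came from the DR library of liver, and the call was lost with all 15 libraries, without the tissue term, without the colon libraries and without the hippocampus libraries. DESeq2 called Cyp3a13 instead, as lower (log2 −0.62, adjusted p 0.0333). In DR-AL against AL, 0 members were called by edgeR's quasi-likelihood test and 0 by DESeq2. In the edgeR test 0.0177% of genes were called, 0.00589% higher and 0.0118% lower, and 12 members had an unadjusted p under 0.05. The share of all genes under that unadjusted p was not computed, so the 15 and the 12 have no background.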

How the data were processed

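The 60 members were taken by gene name from the 1 deposited table of counts and FPKM values for 33603 loci in 15 libraries, and 0 columns had no sample. Members and gene lists were chosen with earlier results of these data known. According to the methods, the authors used Strand software to align stranded reads to mm10, took out duplicates and quantified genes with DESeq. The submitters' processing notes name mm9 and DESeq2 without a version. The authors deposited counts as whole numbers without normalization, with totals that differ between libraries. The authors also deposited FPKM values, which allow for length. Their scaling between libraries is not given in the sources used here. They served to rank members within a tissue and as an alternative to counts. Of the 61 member names, 60 were found in RefSeq GRCm38.p6, and these 60 lay on the same chromosome as in the table, but 3 overlapped in position, so positions of the table are not printed.

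Diets were compared on the counts of named loci within each tissue by the Z test on square roots of counts over totals, for genes with at least 1 count, with the fold taken after adding a pseudocount of 0.5 to scaled counts. Tissues, and diets over tissues, were tested with the quasi-likelihood test of edgeR 4.0.16 in R 4.3.3 with TMM and filterByExpr, on 12 libraries without fat, or 15 for liver against fat. Libraries of different tissues come from the same mice. Each SE beside an edgeR value is the absolute log2 value divided by the square root of the F of its test. It was not estimated apart from that test. DESeq2 1.42.0, other scalings, filters, error levels and left-out libraries were alternatives. On simulated liver counts with 200 genes changed at a fold of 2, the Z test recovered 196, with 17 false calls among 17408 genes. The edgeR test recovered 200 of 200 changed by a fold of 4 between liver and colon, with 11 false calls among 16679. The counts for edgeR were simulated with the same error level for all genes and no tissue difference in unchanged genes. Neither simulation gives the share of false calls between the real libraries. Genes named are those with a mean of at least 100 counts and the largest changes (8 highest and 8 lowest in DR and 5 of each in DR-AL in liver, 4 in colon), the 5 highest by FPKM in each tissue, a fixed set of well-known members, and members of the gene lists. Cyp2c44, Cyp2c50, Cyp2c54 and Cyp2d10 were chosen after their values were seen. Intervals cover counting error only. The p-values over tissues measure only the spread among these libraries. A gene of the lists, with its list, is not reported here.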

Additional observations from a re-analysis of the deposited data

Results flagged for a closer look

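In liver and colon, 4 members were called in opposite directions in DR against AL, as 1 library each, and the difference between the tissues was not tested. They are 8.16% of the 49 members tested in both tissues, where 399 of 16667 genes (2.39%) were called in opposite directions. Cyp1a1 was higher in liver (log2 1.06) and lower in colon (−2.75), where it had 8 counts in AL and 1 in DR. Cyp2c55 was higher in liver (1.65), where its counts were 53 and 147, and lower in colon (−0.60). Cyp2d37-ps was higher in liver (0.54) and lower in colon (−0.64). Cyp3a25 was higher in liver (0.43) and lower in colon (−1.91), where its counts were 64 and 21. In DR-AL against AL, 0 of 49 members and 2.47% of genes were called in opposite directions.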

How the results depend on the processing

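No paired analysis was possible because each tissue and diet has 1 library, as far as diets within a tissue go. Tissues of a diet come from the same mice, and diet as a term in the tissue fits takes up that pairing. With no diet term 46, 44, 5 and 45 members were called in liver against colon, liver against brain, hypothalamus against hippocampus and liver against fat, in place of 47, 44, 4 and 46. A fold of at least 2 left 14, 10 and 18 of the 26, 28 and 33 liver members called in DR against AL, DR-AL against AL and DR-AL against DR, and 9 and 8 of the 18 and 13 colon members in DR and DR-AL. Exact tests with a coefficient of variation of 0.1 gave 16 and 18 in liver against AL and 7 and 6 in colon. With the estimated error they gave 1, 0 and 7 in liver and 5 and 1 in colon. A fold of at least 2 in FPKM gave 13, 12 and 18 in liver and 9 in colon DR with a pseudocount of 0.1, and 12, 8 and 13 in liver and 4 and 1 in colon with a pseudocount of 1. Without members that share at least 10% of their stretches, an alternative chosen after seeing the data, 17, 18 and 19 were called in liver and 10 and 7 in colon. DESeq size factors shifted the median of all genes in DR-AL against DR by 0.11 on the log2 scale. Hypothalamus against hippocampus gave 2 members in a fit of all 15 libraries and between 4 and 8 when the libraries of a diet were left out. The single call in DR over tissues was lost (0) with all 15 libraries and with no tissue term, and was 0 or 1 with a tissue left out. Without liver that call was Cyp2c65, lower, and not Cyp2a4. Shares of all genes are not given for the counts at a coefficient of variation of 0.1, in FPKM or in the alternative fits. Those counts therefore have no background. With FPKM, direction turned for Cyp3a11 in liver, both in DR against AL (0.135) and in DR-AL against DR (−0.001). Direction also turned for Cyp2j9 in liver against brain with the libraries of a diet left out (−1.064 to 0.056, the highest without DR-AL). For Cyp1a1 in liver against fat, near 0 throughout, it turned with RLE scaling (0.007), DESeq2 (0.004) and with a fat library left out (−0.286 to 0.459, the highest without DR). The causes were not tested. At a few counts, as for Cyp1a1 in the DR library of colon (1 count), depth limits what can be shown.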
